A study of Mus musculus with 4 samples.

Results

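Smooth muscle cells of the aortic arch were compared between a Smad4 conditional knockout (cKO) library and its control library, by the unique molecular identifiers (UMIs, 1 per captured transcript) summed over all such cells. A cell barcode was kept with at least 500 genes and under 10% mitochondrial UMIs. It was called smooth muscle with at least 5 UMIs of Myh11 (smooth muscle myosin heavy chain), at least 20 of Acta2 (smooth muscle actin), none of the leukocyte gene Ptprc, the endothelial gene Pecam1 or the fibroblast gene Pdgfra, and fewer than 10 of Spp1 (osteopontin). This gave 833 cKO and 1845 control cells, 2678 of the 14486 kept arch cells and of 25593 kept cells in all 4 libraries. The cells were chosen by their measured UMIs of these 6 genes, and the comparison itself with results of these data known, so the counts below describe it and test nothing.

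The study profiled single cells of the aortic wall by 5′ RNA sequencing in droplets. The cKO mice carried CNC-SMC-Cre, R26-tdT and Smad4flox/flox, and the control mice CNC-SMC-Cre and R26-tdT without the floxed alleles, all aged 16 to 20 weeks, so the Cre driver and the tdT reporter were shared by every group. The cells were freed with collagenase. The labels state neither what the driver's abbreviation stands for nor how many animals were pooled. Descending thoracic aorta of both genotypes, gated in the same way (983 cKO and 792 control cells), served for comparison. Each group was 1 library, so no difference has a replicate check and no test was possible, and the 95% intervals given cover only counting error.

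Smooth muscle of the arch comes largely from the neural crest and that of the descending aorta from mesoderm. Ligands of the TGF-beta and BMP families bind paired receptor kinases, which phosphorylate receptor Smads. These join Smad4, the Smad shared by both branches, and act in the nucleus on targets such as the Id genes (BMP) and Pmepa1 (TGF-beta). Mature smooth muscle carries a contractile apparatus, and in diseased vessels it can lower that apparatus and make matrix instead, a state called modulated.

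The gate took unlike shares of the libraries. Of cells passing the Myh11 and Acta2 limits, 68.4% of 1218 cKO arch cells and 45.9% of 4023 control arch cells met the other limits, against 63.3 and 62.3% in the descending libraries. Pecam1 was counted in 12.6% of such cKO arch cells and 36.9% of such control arch cells, and Pdgfra in 17.98 and 28.0%. Median depth per gated cell was 11330 UMIs for cKO and 13126 for control arch cells, and the median mitochondrial share was 4.20 and 2.34%. Near the limits, 64 cKO and 51 control cells had 5 or 6 Myh11 UMIs and 11 and 22 had 20 to 24 Acta2 UMIs, while just outside, 53 and 43 cells had 3 or 4 Myh11 UMIs and 13 and 18 had 15 to 19 Acta2 UMIs. Spp1, at 1 to 9 UMIs, was found in 20.2% of the cKO and 0.325% of the control cells. Between the 2 arch libraries 99 barcodes were shared, 2 of them among gated cells. Of the 4 libraries, the control arch alone held UMIs of Y-linked genes (370 of Ddx3y), and the cKO arch file had a list of 28693 features where the other files had 32285, so genotype, sex make-up and annotation cannot be told apart.

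The genes of the gate stood, in UMIs per 1e6 UMIs of the gated cells (CPM), at 1889.9 for Myh11 in the cKO and 2754 in the control arch (3761 and 3421 in the descending libraries). Acta2 stood at 23175, 27824, 24734 and 22408 CPM in the same order. Since the gate used both genes, these levels are a description only. Myh11 was lowest in the cKO arch, and Acta2 was highest in the control arch. Tagln (transgelin), which the gate did not use, was at 17112 CPM in the cKO against 17404 CPM in the control arch (16999 and 14847 in the descending libraries), so a further defining gene was abundant in both arch libraries.

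Smad4, the targeted gene, was counted in all 4 libraries. It was at 63.7 CPM for cKO (679 UMIs; 59.0 to 68.7) and 69.6 CPM for control arch cells (1782 UMIs; 66.4 to 72.9), with 88.0 and 94.1 in the descending libraries. The cKO to control log2 ratio was -0.13 (-0.26 to 0.00) for the arch and -0.10 for the descending. The labels do not say which exons the flox sites flank, and a 5′ count outside the deleted exons does not check the label.

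Of 10922 genes with at least 100 UMIs over both arch libraries, 692 (6.34%) were higher in the cKO cells by at least 1.5-fold with an interval away from equality, 1531 (14%) were lower, and 20.4% were called in either direction. The median of all tested genes was -0.10 on the log2 scale, and -0.11 for all genes with at least 20 UMIs. With median-of-ratios scaling 936 genes were higher and 1159 lower, a share of 44.7% higher among the called against 31.1%. The same rule in the descending aorta called 1.29% of 10392 genes higher and 2.47% lower, 3.76% in all. The 2 regions called 41 genes higher in both, 5.92% of the arch and 30.6% of the descending calls, and 74 lower in both, 4.83 and 28.8%. Of the arch calls, 488 higher and 1139 lower genes were called the same way in endothelial cells, fibroblasts or leukocytes of the same libraries. Sorted by what other cell types of the library carried, 105 higher and 284 lower calls belonged to neither of 2 kinds. A gene was near its level in other droplets when, in the library where it was higher, smooth muscle held under 4 times the UMIs per cell of the lowest of the endothelial, fibroblast and leukocyte cells, or under 0.25 of the CPM of any other gate. It was shared when endothelial cells or fibroblasts had a ratio of the same sign, at least 0.5 of its log2 size, with an interval away from 0. Genes of neither kind are called smooth muscle genes below. The name is a label of this rule only, and other cell types can hold as much or more, or differ in the same direction by a smaller ratio. In the control arch Sox9 was at 77.2 CPM in fibroblasts and 32.4 in smooth muscle, and Gxylt2 at 398 in endothelial cells and 239. Anxa3 was at 300 CPM in cKO arch endothelial cells and 305 in cKO arch smooth muscle.

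**Figure D1:**
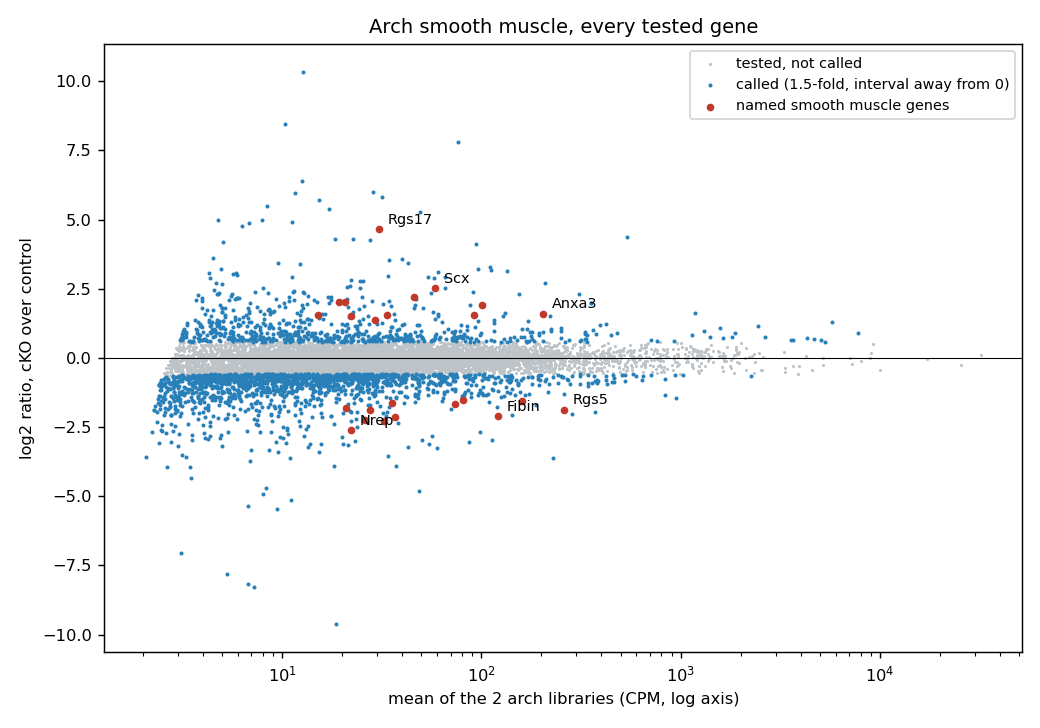
Each point is 1 of the 10922 tested genes in arch smooth muscle, with the mean CPM of both libraries on a log axis and the log2 ratio of cKO over control. Called genes are blue, named smooth muscle genes red; Rgs17 lies highest of the red points at 4.66 and Nrep lowest at -2.61. Genes without UMIs in a library are drawn at their fitted ratio, which is no measure of size.

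Rgs17, which encodes a regulator of G protein signalling that shortens signals of receptors coupled to G proteins, had the highest ratio of the smooth muscle genes. It was at 58.6 CPM in the cKO and 2.30 in the control arch (11.9 and 11.5 in the descending libraries), a log2 ratio of 4.66 (4.28 to 5.08) for the arch and 0.05 for the descending aorta. The cKO arch lay above and the control arch below both descending libraries. Arch fibroblasts differed in the same direction, by 1.81 (1.06 to 2.64), at 7.59 CPM for cKO against 2.14 for control fibroblasts. That was under 0.5 of the log2 size in smooth muscle, so the rule did not call Rgs17 shared. Arch leukocytes, which that part of the rule leaves out, held 16 UMIs of Rgs17 against 0, and endothelial cells 1 against 0. The difference was therefore not limited to smooth muscle. In cells thinned to 5000 UMIs, Rgs17 was found in 17.7% (15.1 to 20.6) of cKO arch cells and 0.992% (0.579 to 1.58) of control arch cells, against 0.504% of cKO arch leukocytes (27.0 and 2.11% of arch smooth muscle without thinning). Thinning left out 66 of the cKO and 132 of the control cells, and 610 and 236 of the leukocytes, whose median depths were 5783 and 5830 UMIs.

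Scx (scleraxis, a transcription factor of tendon and other force-bearing tissue) was at 99.97 CPM in the cKO and 17.5 in the control arch (20.4 and 15.8 in the descending libraries), a ratio of 2.51 (2.35 to 2.68). Here the cKO arch alone stood apart. Sphkap, an anchor of protein kinase A, was at 74.9 against 16.3 CPM, and both arch libraries lay above the descending ones (1.94 and 1.64). The cKO arch alone stood apart for Anxa3, an annexin that binds membranes in a calcium-dependent way (305 against 101 CPM; 120 and 106). Rnf152, a ubiquitin ligase, differed by 2.02 with another placement: at 31.0 CPM the cKO arch lay between the descending libraries (31.3 and 27.2), and the control arch, at 7.65, stood apart. P3h2, a prolyl hydroxylase of collagen, had the control arch apart too, at 11.4 against 32.6 CPM (31.9 and 26.4). Scx was found in 23.5% of thinned cKO arch cells and 6.36% of control arch cells, with 1.51% of cKO leukocytes, and 66.0% of its cKO UMIs lay in the 10% of cells with most of it.

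Among lower genes, Nrep (neuronal regeneration-related protein) was at 6.19 CPM in the cKO and 38.1 in the control arch (44.9 and 72.7 in the descending libraries), a ratio of -2.61 (-3.003 to -2.26). Cdh6, a cadherin of cell contacts, was at 13.5 against 59.9 CPM (62.4 and 73.0 in the descending libraries; -2.14). Fibin stood at 45.2 against 196 CPM (197 and 181; -2.11), and Slc16a7, a monocarboxylate transporter, at 11.7 against 43.3 CPM (40.3 and 48.9; -1.88). In all 4 the cKO arch was the lowest library. Nrep was found in 3.65% of thinned cKO arch cells and 17.0% of control arch cells.

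Rgs5, a regulator of G protein signalling typical of pericytes and arterial smooth muscle, was at 111 CPM in the cKO and 406 in the control arch (735 and 485 in the descending libraries), so the cKO library was the lower one in the arch (-1.86, -1.95 to -1.78) and the higher one in the descending aorta (0.60). In arch fibroblasts Rgs5 went the other way, at 2.50 (2.30 to 2.71), with 1.63 UMIs per cKO and 0.218 per control cell. Few smooth muscle cells carried much of it: the 10% richest in Rgs5 held 90.8% of its cKO arch UMIs and 72.8% of its control arch UMIs. Of the pericyte markers, 3 of 6 tested were lower and 0 higher, beside 14% of all genes called lower and 6.34% higher. Their sum was 736 against 1027 CPM (1798 and 1516 in the descending libraries). The part of pericyte RNA in Rgs5 was not tested. Bmp3, a BMP family ligand, was at 11.1 against 53.5 CPM (29.8 and 30.7; -2.27). Sox9, a factor of cartilage, was at 9.28 against 32.4 CPM, with 8.98 and 2.22 CPM in the descending libraries, so there the control arch was the high one. Id4 was at 35.3 against 112 CPM (110 and 81.9; -1.67).

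**Figure D2:**
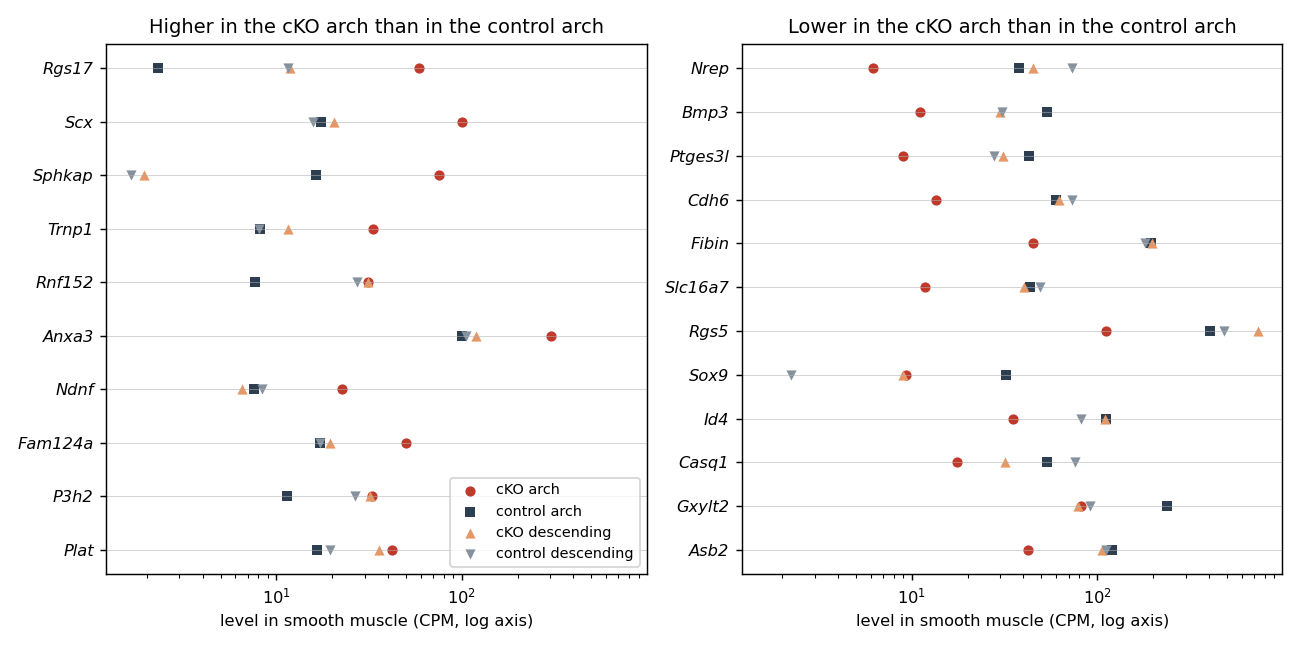
Levels in CPM on a log axis of 10 of the 12 highest (left) and of the 12 lowest (right) smooth muscle genes, with 1 point for each of the 4 libraries. For Scx and Anxa3 the cKO arch point lies to the right of the rest, for Rnf152 the control arch point lies to the left, and for Cdh6 and Fibin the cKO arch point lies to the left.

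Some of the largest ratios were shared with other cell types. Adcy1, a calcium-activated adenylyl cyclase, was at 95.6 CPM in the cKO and 2.46 in the control arch (64.1 and 26.9 in the descending libraries), a log2 ratio of 5.27 (4.91 to 5.67). The control arch stood apart, and the cKO library was the higher one in both regions. Adcy1 was shared by the rule with fibroblasts (3.91), yet fibroblasts of the cKO arch held 0.0592 UMIs per cell, leukocytes 0.0107 and endothelial cells 0, against 1.22 in smooth muscle. Slc8a1, the sodium-calcium exchanger, was at 11.3 CPM in the cKO against 88.8 CPM in the control arch, with 74.3 and 89.3 in the descending libraries (-2.96). Kctd16, a partner of GABA-B receptors, had 6 UMIs in cKO against 551 in control cells (-5.14, -6.71 to -4.13). Actc1 (cardiac actin) had 6 against 410 UMIs (-4.72, -6.28 to -3.70). For some genes all 4 cell types of the cKO arch library differed alike by at least 4-fold, 11 higher and 30 lower, among them Tonsl (7.79 in smooth muscle) and Fam89b (-4.82). Srp54a had 0 against 954 UMIs, at least 132-fold lower by a floor of 3 UMIs per library, and its near-identical copies make the value uncertain. Descending cKO and control cells stood at 1.76 and 1.74 CPM for Tonsl, 77.3 and 72.7 for Fam89b, 33.1 and 32.8 for Srp54a. Both descending files had the list of 32285 features. The genes that differed alike also include the gate gene Spp1 and the Y-linked Ddx3y and Eif2s3y. From the arch libraries alone, annotation, sex make-up and genotype cannot be told apart for such genes, and the cause was not tested.

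Contractile genes had small ratios. All 30 members of that list were tested, 3 were higher and 7 lower, and the median log2 ratio was -0.19, beside the -0.11 for all genes. Cnn1 (calponin) was at 1373 CPM in the cKO and 1902 in the control arch (1626 and 1629 in the descending libraries), a ratio of -0.47 (-0.50 to -0.44) that did not reach the 1.5-fold. Myl9 (myosin light chain) was at 4745 and 5630 CPM in the cKO and control arch and at 5512 and 5579 CPM in the cKO and control descending aorta. Tpm1 (tropomyosin) was, in that order of libraries, at 2939.5, 3776, 4214 and 3644 CPM. The called ones included Des, the intermediate filament desmin (-0.88), Synpo2 (-0.83), Hspb6 (-0.80), Kcnmb1 (-0.66), Pdlim3 (-0.64) and Actg2 (-0.61) on the low side. On the high side were Mustn1 (0.81), Pln (0.80) and the transcription factor Srf (0.66). Of the calls in this list 9 were shared by the rule with endothelial cells or fibroblasts. Synpo2 stood at -0.65 in endothelial cells and -0.79 in fibroblasts of the arch. Pln was at 1.94 against the control in cKO cells with high counts of the RFP feature described below and at -0.07 (-0.42 to 0.26) in those with low counts. The promoters of Myl9 and Cnn1 are shown because serum response factor, whose gene Srf was higher, acts on contractile genes through the CArG box, marked in capitals. Both are 250 bases before the RefSeq start on the GRCm38.p6 build, Myl9 at chr2:156775214-156775463 on the plus strand and Cnn1 at chr9:22099003-22099252 on the plus strand. Myl9 held a CArG box starting 161 bases before the start and Cnn1 none in this window, and 4 of 25 contractile promoters in the table and 1.40% of all 27025 held one.
Myl9: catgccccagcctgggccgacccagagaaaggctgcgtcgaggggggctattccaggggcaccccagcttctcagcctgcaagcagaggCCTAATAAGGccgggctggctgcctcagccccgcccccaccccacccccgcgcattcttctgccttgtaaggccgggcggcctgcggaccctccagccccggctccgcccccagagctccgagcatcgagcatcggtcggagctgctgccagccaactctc
Cnn1: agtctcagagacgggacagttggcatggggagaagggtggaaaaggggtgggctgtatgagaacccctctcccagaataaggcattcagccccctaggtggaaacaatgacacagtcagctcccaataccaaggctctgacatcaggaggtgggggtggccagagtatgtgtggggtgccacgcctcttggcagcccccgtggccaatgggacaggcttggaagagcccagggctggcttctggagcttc
The same list had 0 calls in the descending aorta and a median of 0.08 there, where 3.76% of all genes were called, against 20.4% in the arch. Genes of oxidative phosphorylation had 0 of 34 called and a median of 0.05.

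Modulated smooth muscle genes were mostly higher. Of 18 tested members 13 were higher and 1 lower, with a median of 1.502, beside 6.34% of all genes called higher and 14% lower. In the descending aorta 3 were higher and 2 lower, where 3.76% of all genes were called. Of these 18, 4 were not near their level in other droplets, Fn1, Mgp and Igfbp2 among them, and all 4 were higher. These 3 were also higher in cKO arch fibroblasts, by 1.00 for Fn1, 2.33 for Mgp and 8.24 for Igfbp2, so the differences were shared with another cell type. Igfbp2 was also higher in endothelial cells (6.30) and leukocytes (6.05) and is one of the 11 genes at least 4-fold higher in all 4 cell types. For these, annotation, sex make-up and genotype cannot be told apart from the arch libraries. Fn1 (fibronectin) was at 1779 CPM in the cKO and 575 in the control arch (1323 and 1027 in the descending libraries), a log2 ratio of 1.63 (1.60 to 1.66), and the control arch was the low library. Mgp (matrix Gla protein, which restrains calcification) was, in the order of libraries above, at 8148, 3332, 3051 and 3923 CPM (1.29), and Igfbp2 (a binding protein of insulin-like growth factors) at 1032, 49.2, 17.1 and 19.5 CPM (4.39, 4.31 to 4.48). Here the cKO arch was the high library. Igfbp2 was uneven: it was found in 36.5% of thinned cKO arch cells and 5.55% of control arch cells, and the richest 10% of cKO cells held 86.6% of its UMIs, up to 571 in 1 cell. Leukocytes of the cKO arch held Igfbp2 in 13.4% of thinned cells and 0.263 UMIs per cell, against 13.2 in smooth muscle.

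The other 14 tested modulated genes were near their level in other droplets. Comp, a cartilage matrix protein, was at 173 against 18.7 CPM (3.21) with 2.22 UMIs per cell in cKO smooth muscle and 34.3 in cKO fibroblasts, and Timp1, an inhibitor of matrix proteases, at 200.2 against 22.0 CPM (3.18) with 2.56 and 18.8 UMIs per cell. Spp1-high cells, which the gate leaves out, numbered 335 against 4 in the control library, with 32.6 UMIs of Comp per cell in the cKO arch. Leukocyte markers differed in the same direction: 9 of 9 tested members of that list were higher, its sum was 176 CPM against 50.4 CPM in control cells, with 0 and 2 of 15 members at 0, and S100a9 had 272 against 0 UMIs, at least 218-fold. Fibroblast markers had 2 higher and 4 lower of 11, beside 6.34 and 14% of all genes, with a sum of 995 against 1532 CPM. The part of free RNA in these differences was not tested.

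**Figure D3:**
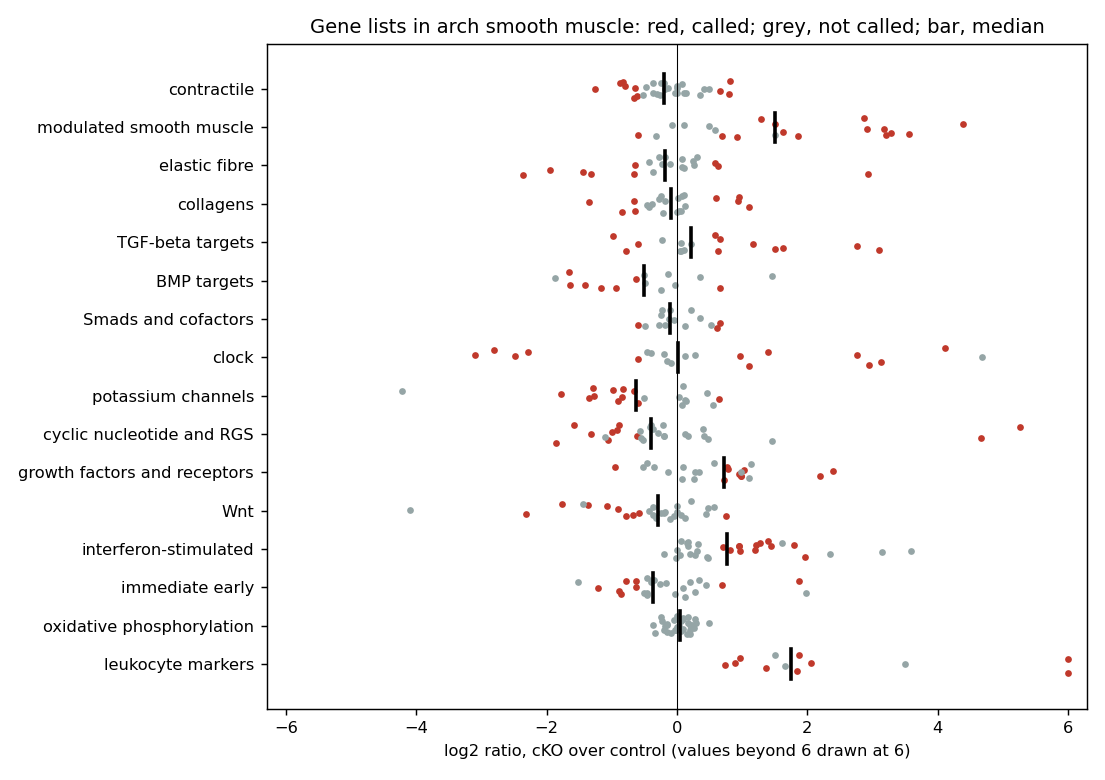
Log2 ratios of cKO over control in arch smooth muscle for members with at least 20 UMIs of 16 gene lists, 1 point per gene, red where called, with a bar at the median. The modulated list centres at 1.502, potassium channels at -0.64, BMP targets at -0.50 and contractile genes at -0.19.

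Of 19 tested elastic fibre genes 3 were higher and 6 lower (median -0.18), beside 6.34% of all genes called higher and 14% lower. All 3 higher ones were near their level in other droplets, and of the 12 that were not, 0 were higher and 3 lower. Mfap4, a microfibril-associated protein, was at 507 CPM in the cKO against 1381 CPM in the control arch, with 410 and 688 in the descending libraries (-1.45), and Lox, which cross-links elastin and collagen, at 196 against 306 CPM (106 and 204; -0.64). In both genes the control arch was the high library and the cKO was lower in both regions. Mfap4 was shared by the rule, at -1.62 in arch fibroblasts and -1.16 in arch endothelial cells. Eln (elastin) was at 2170.5 against 2916 CPM, a ratio of -0.43, and at 1779 against 4078 CPM in the descending aorta. Collagens had 4 higher and 4 lower of 21, beside 6.34 and 14% of all genes. Tnc (tenascin C, a matrix protein of remodelling tissue) was at 108 against 12.6 CPM (3.10), with 97.5 and 154 in the descending libraries. Acan (aggrecan, a proteoglycan of cartilage) was at 87.5 against 27.4 CPM (14.4 and 22.8, 1.68). Both were shared by the rule, with larger ratios in arch fibroblasts (6.52 for Tnc and 6.61 for Acan). In the cKO arch Tnc had 1.38 UMIs per smooth muscle cell, 1.95 per fibroblast and 3.84 per Spp1-high cell.

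Genes of the TGF-beta and BMP pathway were called in both directions. Of 15 Smads and cofactors, Smad7 (0.65), an inhibitory Smad, and Ski (0.61), a corepressor, were higher and Skil (-0.60) lower. That share was near the 20.4% of all genes called in either direction. Smad7 and Ski were near their level in other droplets, and in the RFP-high cells described below Smad7 was at 0.03 (-0.16 to 0.21) against the control. Receptor Smads were not called, with Smad1 at 37.3 against 45.1 CPM and Smad2 at 23.8 against 25.7 CPM. Of 21 tested ligands and receptors 5 were higher and 3 lower, beside 20.4% of all genes called in either direction. Among ligands Tgfb2 was at 126 CPM in the cKO arch, 70.9 in the control arch, 93.5 and 86.6 in the descending libraries (0.83), and Tgfb3 at 99.2 against 65.6 CPM (80.9 and 63.7; 0.60). Bmpr1b, a BMP receptor, was at 14.3 against 47.7 CPM (-1.74) and was shared by the rule, at -1.31 in arch fibroblasts. Of 11 secreted inhibitors 5 were higher and 1 lower, beside 6.34 and 14% of all genes. Chrdl1 and Fst, both higher, were near their level in other droplets. Vwc2, a BMP binder, was at 92.7 against 18.3 CPM (2.34), and in the descending aorta the control library had 0.0967 CPM against 88.2 in the cKO. Vwc2 was shared by the rule, with a larger ratio in arch fibroblasts (3.36). TGF-beta targets had 8 higher and 3 lower of 17 (median 0.22), and BMP targets 1 higher and 6 lower of 13 (median -0.50). Of all genes 6.34% were called higher and 14% lower. By the rule above, 9 of the TGF-beta target calls and 3 of the BMP target calls were shared with endothelial cells or fibroblasts. The lower BMP targets were Id4 (-1.67), Dlx5 (-1.64), Msx2 (-1.41), Hey1 (-1.16), Atoh8 (-0.94) and Bambi (-0.63). Msx2 and Dlx5 were near absent from both descending libraries (0 to 1.45 CPM), while Id1 and Id3 stood at -0.50 and -0.14 and were not called.

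A further count split the cKO arch cells. The file of that library alone counts a feature named RFP, with no sequence in the labels, taken here for the tdT reporter. Since no other library counts it, its level could not be compared with that of control cells. Whether RFP-high cells were those in which Cre had acted was not tested. Of the 833 cells 274 had at least 16 RFP UMIs and 483 fewer than 8, against 0.356% of leukocytes with 16 or more. Their median depths were 9432.5 and 11807 UMIs. Of 7939 genes tested between them, 291 (3.67%) were higher and 223 (2.81%) lower in RFP-high cells. Against all control arch cells, Smad4 was at -0.96 (-1.26 to -0.68) in RFP-high cells, with 35.6 CPM, and at 0.08 (-0.07 to 0.23) in RFP-low cells, with 73.6 CPM. Id1 was at -1.62 in RFP-high and -0.25 in RFP-low cells, Id3 at -1.09 and 0.11, Smad6 at -0.96 and -0.10, and the TGF-beta target Pmepa1 at -0.92 and 0.01. Between RFP-high and RFP-low cells, Id1 differed by -1.38 (-1.69 to -1.09), Id3 by -1.20 and Pmepa1 by -0.93, and 8 of 10 tested BMP targets were lower and 0 higher.

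Other genes fell into those with and without a called difference across the RFP split. Rgs17 was at 4.61 against the control in RFP-high and 4.64 in RFP-low cells, Adcy1 at 5.16 and 5.37, Dbp at 4.00 and 4.16, and Tagln at -0.03 and 0.00, none with a called difference between the subsets. Among the lower smooth muscle genes, the ratio was further from 0 in RFP-high cells for Rgs5 (-3.70 and -1.35), Bmp3 (-3.82 and -1.84) and Fibin (-2.85 and -1.83). So was that of Sox9 (-2.66 and -1.60), but its 15 and 67 UMIs were too few for a test between the subsets. Ptges3l (-1.72 and -2.48) and Slc16a7 (-1.63 and -1.98) went the other way. RFP-high cells differed from RFP-low cells by -2.35 (-2.68 to -2.05) in Rgs5 and by -1.02 (-1.39 to -0.68) in Fibin. Among the higher genes, the ratio was nearer to 0 in RFP-high cells for Scx (1.73 and 2.73), Anxa3 (1.03 and 1.72), Igfbp2 (3.78 and 4.52) and Fn1 (1.06 and 1.73). The difference between the subsets was -0.67 (-0.72 to -0.61) in Fn1. The list medians against the control were 1.08 and 1.56 for modulated genes and -0.29 and -0.76 for potassium channels. Interferon-stimulated genes had 1.42 in RFP-high and 0.01 in RFP-low cells. Of their 21 tested members 14 were higher in RFP-high cells, beside 3.67% of all genes. Immediate early genes had 0.20 and -0.59.

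**Figure D4:**
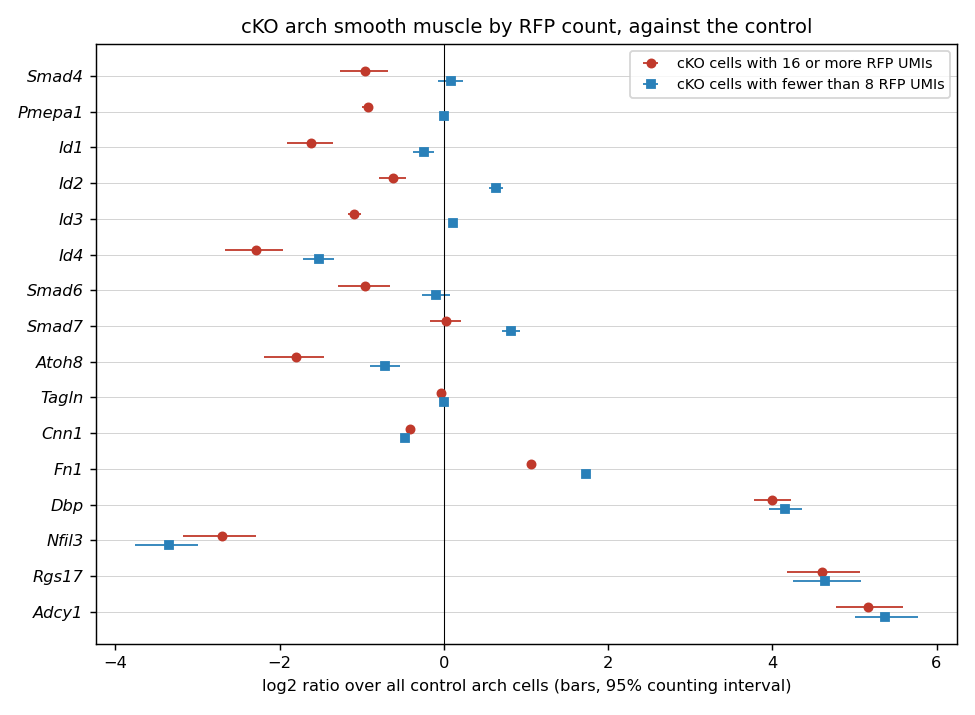
Log2 ratio over all control arch cells of RFP-high (red) and RFP-low (blue) cKO arch smooth muscle, with 95% counting intervals. Smad4, Pmepa1, Id1 and Id3 lie to the left of 0 in RFP-high cells by 0.92 or more and within 0.25 of it in RFP-low cells, while Rgs17, Adcy1 and Dbp lie far to the right in both.

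Clock genes had some of the largest differences, in a pattern that set the control arch apart. The molecular clock is a loop in which Arntl (BMAL1) with Clock or Npas2 switches on E-box genes, among them the Per, Cry, Nr1d and Dbp genes, whose products feed back. Their promoters are shown as the stretches through which that loop acts, for Ciart, Dbp, Nr1d1 and Nfil3, which had the largest ratios of the list, and for Per3 and Cry1, chosen for the letters they hold. Each is the 250 bases before the RefSeq start, from the GRCm38.p6 table, written 5′ to 3′ on the strand of the gene, and capitals mark CACGTG (the E-box, a palindrome), TTATGTAA (the D-box bound by Dbp, Tef and Nfil3) and AGGTCA (bound by Rora and Nr1d1), the last 2 on either strand.

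Ciart: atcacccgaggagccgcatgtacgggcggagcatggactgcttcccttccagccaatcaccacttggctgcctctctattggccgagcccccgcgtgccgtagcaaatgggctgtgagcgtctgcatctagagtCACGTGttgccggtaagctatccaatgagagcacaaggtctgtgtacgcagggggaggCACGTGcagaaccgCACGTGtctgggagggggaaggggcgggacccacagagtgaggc
Dbp: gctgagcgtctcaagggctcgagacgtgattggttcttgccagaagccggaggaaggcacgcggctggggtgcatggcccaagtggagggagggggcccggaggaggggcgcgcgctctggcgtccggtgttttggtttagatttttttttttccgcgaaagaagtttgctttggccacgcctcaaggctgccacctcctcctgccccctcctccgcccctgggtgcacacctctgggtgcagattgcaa
Nr1d1: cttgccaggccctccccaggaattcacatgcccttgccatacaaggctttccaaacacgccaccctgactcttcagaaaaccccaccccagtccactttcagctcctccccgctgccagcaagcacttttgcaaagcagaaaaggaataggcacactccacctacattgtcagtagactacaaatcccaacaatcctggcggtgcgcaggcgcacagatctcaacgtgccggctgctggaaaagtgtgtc
Nfil3: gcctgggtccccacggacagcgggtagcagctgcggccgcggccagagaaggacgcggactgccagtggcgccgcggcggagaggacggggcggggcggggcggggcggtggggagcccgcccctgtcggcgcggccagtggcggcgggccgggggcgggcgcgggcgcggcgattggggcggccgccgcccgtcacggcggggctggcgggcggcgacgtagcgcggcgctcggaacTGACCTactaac
Per3: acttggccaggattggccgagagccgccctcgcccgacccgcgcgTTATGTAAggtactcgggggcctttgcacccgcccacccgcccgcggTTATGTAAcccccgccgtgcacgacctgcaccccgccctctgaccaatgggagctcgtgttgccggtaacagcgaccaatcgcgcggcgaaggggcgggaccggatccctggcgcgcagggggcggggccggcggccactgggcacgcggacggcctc
Cry1: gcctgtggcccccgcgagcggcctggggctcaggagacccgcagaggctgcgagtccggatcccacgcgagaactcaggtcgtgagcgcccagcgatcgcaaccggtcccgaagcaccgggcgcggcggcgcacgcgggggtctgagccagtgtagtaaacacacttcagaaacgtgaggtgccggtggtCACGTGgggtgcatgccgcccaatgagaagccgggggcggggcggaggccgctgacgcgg

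Of 21 clock genes counted in these data 17 had a promoter in the table. Dbp (chr7:45704997-45705246 on the plus strand) and Nr1d1 (chr11:98775378-98775627 on the minus strand) held none of these letters in this window. Ciart (chr3:95882229-95882478 on the minus strand) held 3 copies of CACGTG, starting 116, 58 and 44 bases before the start, Cry1 (chr10:85185055-85185304 on the minus strand) 1 and Per3 (chr4:151044666-151044915 on the minus strand) none, but 2 of TTATGTAA. Nfil3 (chr13:52981040-52981289 on the minus strand) held 1 copy of AGGTCA. The E-box occurred in 5 of the 17 and in 6.05% of all 27025 promoters, TTATGTAA in 1 and in 0.862%, and AGGTCA in 3 and in 13.8%. These letters describe the windows and show no binding.

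Of 19 tested clock genes 7 were higher and 5 lower (median 0.02), beside 6.34% of all genes called higher and 14% lower. Of the calls 12 were shared by the rule with endothelial cells or fibroblasts. Dbp, an output factor of the clock, was at 177 CPM in the cKO and 10.2 in the control arch (420.4 and 372 in the descending libraries), a log2 ratio of 4.12 (3.93 to 4.31). Nr1d1 (REV-ERB alpha, a repressor) stood at 242, 27.6, 213 and 184 CPM (3.13), and Nr1d2 at 60.2, 7.77, 113 and 107 CPM (2.95). Ciart, with 90 against 8 UMIs and so under the limit for testing, was at 8.44, 0.312, 10.0 and 8.80 CPM. Arntl was at 7.13 CPM in the cKO arch, 40.1 in the control arch, 3.61 and 3.29 in the descending libraries (-2.48), Nfil3 at 11.3, 97.2, 6.17 and 12.6 CPM (-3.11) and Cry1 at 3.19, 22.6, 5.99 and 3.48 CPM (-2.81). In each of these the control arch lay beyond the other 3 libraries, and Arntl and Cry1 were near their level in other droplets. Dbp was found in 44.6% of thinned cKO arch cells, 4.96% of control arch cells, 73.1% of cKO descending cells and 67.9% of control descending cells, and in 5.80 and 9.003% of arch leukocytes. Endothelial cells and fibroblasts of the arch had a Dbp ratio of the same direction, 3.52 and 3.77.

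**Figure D5:**
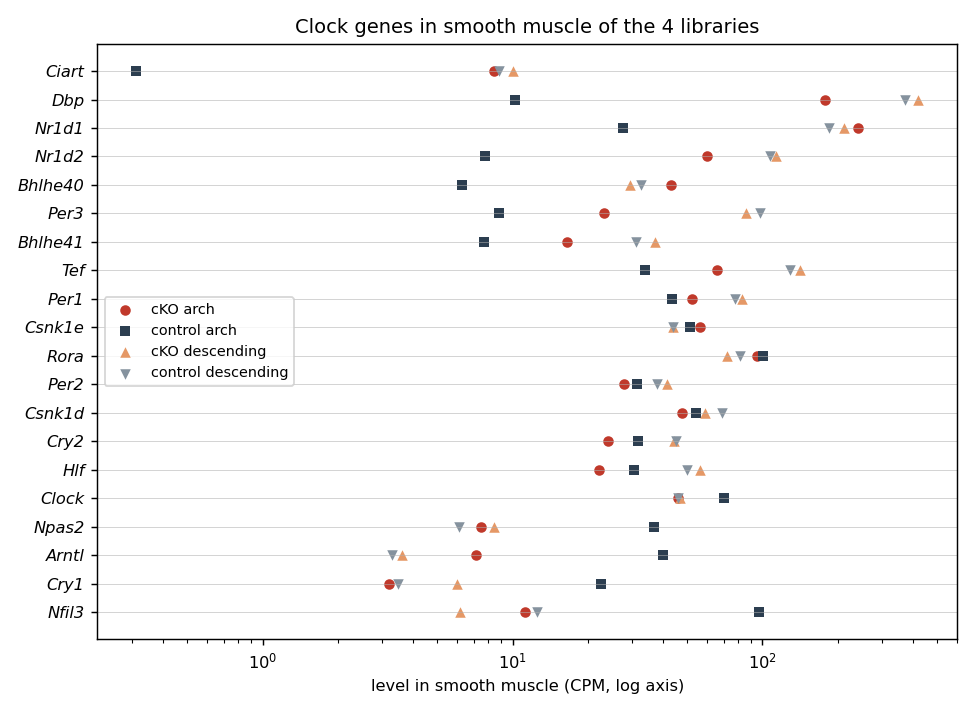
Levels in CPM on a log axis of the 20 clock genes with at least 20 UMIs in smooth muscle of the 4 libraries. For Ciart, Dbp, Nr1d1 and Nr1d2 the control arch point is the leftmost, and for Nfil3, Cry1, Arntl and Npas2 the rightmost.

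Genes of relaxation and membrane potential were mostly lower where called. Of 17 tested potassium channel genes 1 was higher and 10 lower (median -0.64), beside 6.34% of all genes called higher and 14% lower. In the descending aorta 0 were higher and 1 lower, where 3.76% of all genes were called. Of the arch calls in this list 4 were shared by the rule with endothelial cells or fibroblasts. Kcnma1, the pore of the large-conductance calcium-activated channel, was at 30.6 CPM in the cKO arch, 77.7 in the control arch, 90.3 and 95.4 in the descending libraries (-1.34, -1.52 to -1.18), and its smooth muscle subunit Kcnmb1 at 220 against 348 CPM (308 and 311; -0.66). Kcnab1, a subunit of voltage-gated channels, was at 37.7 against 92.4 CPM (121 and 138; -1.29), and Kcnk3, a leak channel, at 11.3 against 22.3 CPM (62.0 and 45.1; -0.98). The cKO arch was the lowest library for each of these 4. Both subunits of the nitric oxide receptor guanylyl cyclase were lower, Gucy1a1 at 253 against 468 CPM (478 and 527; -0.89) and Gucy1b1 at 129 against 258 CPM (230.3 and 252; -0.99), as was Prkg1, the kinase that their product activates, at 42.5 against 80.4 CPM (103 and 121; -0.92). Of 23 cyclic nucleotide and RGS genes 2, Adcy1 and Rgs17, were higher and 8 lower, beside 6.34 and 14% of all genes. Here too 4 of the calls were shared by the rule. Kcnma1 was found in 14.3% of thinned cKO arch cells and 31.0% of control arch cells, and Gucy1b1 in 49.0 and 70.5%, with 0.252 and 1.77% of cKO leukocytes.

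Of 20 growth factor and receptor genes 9 were higher and 1 lower (median 0.71), beside 6.34% of all genes called higher. In the descending aorta 1 was higher and 2 lower. Of the arch calls 7 were shared by the rule with endothelial cells or fibroblasts. Pdgfa, a platelet-derived growth factor chain, was at 298 against 151 CPM (237 and 220.1; 0.98), Fgf2 at 113 against 55.8 CPM (58.5 and 52.4; 1.02) and Hbegf, a ligand of the EGF receptor, at 104 against 53.4 CPM (36.9 in each descending library; 0.96). Pdgfa, Fgf2 and Hbegf were each highest in the cKO arch, and Pdgfa was also lowest in the control arch. Heyl, a target factor of Notch in arteries, was at 68.5 against 182 CPM (177 and 197; -1.41), and Wif1, a secreted Wnt inhibitor, at 54.3 against 184 CPM (36.5 and 50.6; -1.76), the first with the cKO arch low and the second with the control arch high. Of the adhesion genes Itga1, an integrin that binds collagen, was at 74.6 against 169 CPM (246 and 209; -1.18), Cav1 (caveolin) at 292 against 565 CPM (460.2 and 513; -0.95) and Itga5, the fibronectin receptor subunit, at 231 against 121 CPM (111 and 118; 0.94).

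Interferon-stimulated genes had 12 higher and 0 lower of 26 tested (median 0.76), beside 6.34 and 14% of all genes. However, 25 of the 26 were near their level in other droplets. B2m, the light chain of class I MHC, was at 589 against 253 CPM (216 and 238; 1.22), with 7.54 UMIs per cKO smooth muscle cell and 18.7 per cKO leukocyte. The part of leukocyte RNA was not tested.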

How the data were processed

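Single-cell 5′ RNA libraries of 4 samples, 1 per genotype and region, were used. The authors deposited UMI count matrices per library, made with Cell Ranger 6.1.1 on mm10 per the submitters' processing notes (6.1.2 per the file headers), with no annotation release named in them. Genes were matched by Ensembl identifier, 27734 in all.

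Counts of gated cells were summed per library and scaled to CPM. A prior of 0.5 UMI entered each log2 ratio, and its 95% interval is the exact conditional one. Shares have exact Clopper-Pearson intervals, and levels exact Poisson ones. These cover counting error only. No doublet caller was run. The gate removes droplets with Ptprc, Pecam1 or Pdgfra. Computation used Python 3.11.15, numpy 2.4.6, scipy 1.17.1 and pandas 2.3.3, and was tested on simulated data.

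Members and lists were chosen with earlier results of these data known. The rule for named genes took the 12 highest and 12 lowest smooth muscle genes with at least 100 UMIs and 20 CPM in either library, the 6 and 4 most extreme shared and other-droplet genes, and the 4 most extreme called members of each list. Gate genes, Xist and Y-linked genes, ribosomal genes and unnamed transcripts were left out. Other members named were chosen after their values were seen. Alternatives changed the cell filter, gate, thinning, weights, scaling, UMI minimum, prior and fold. Some named genes are not reported here.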

Additional observations from a re-analysis of the deposited data

Results flagged for a closer look

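For some genes the cKO and control libraries differed in opposite ways in the 2 regions, by log2 ratio in the arch minus that in the descending aorta. With 1 library per group, the difference between regions was not tested against replicates. Lower in the cKO arch and higher in the cKO descending aorta were Rgs5, with a difference of -2.46, Sox9 with -3.79, Cry1 with -3.58, S1pr3 with -2.77, Actc1 with -5.74, Casq2 with -3.22, Wnt5a with -2.02 and Pi16 with -3.18. Higher in the cKO arch and lower in the cKO descending aorta were Acan with 2.34, Podn with 2.78, Tnc with 3.75 and the leukocyte or platelet genes Tyrobp with 2.7, Laptm5 with 4.01 and Pf4 with 2.3.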

How the results depend on the processing

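The 692 higher and 1531 lower genes were recomputed under 17 other settings, 4 of them (no limit on Pdgfra, no limit on Pecam1, and cKO cells of high or low RFP only) chosen after seeing the data. The count moved by more than 1.5 times with a fold of 2, to 293 higher and 583 lower, and with a minimum of 500 UMIs, to 344 and 736, where fewer genes are tested or pass by construction. Of 185 named called genes 177 kept their sign under every setting. Ifit1 reversed to -0.18 with Myh11 at 10 and Acta2 at 50 UMIs, to -0.91 with thinned barcodes and to -0.23 in RFP-low cells. Upk3b reversed to 0.073 with the stricter gate, Chad to 0.59 with no limit on Spp1 and Hba-a2 to -0.014 with no limit on Pdgfra. With RFP-high cells only, Hoxb5 was -1.39, Hoxb6 -0.12, Flt1 -0.057 and Ndufa4l2 0.030, and the medians were 0.20 for immediate early genes, 0.018 for fibroblast markers and 0.030 for pericyte markers. Fibroblast markers were 0.16 with the looser gate. Counting also medians near 0, 15 of 45 lists changed sign under some setting, among them clock genes in 3, collagens in 1, ligands and receptors in 4 and secreted inhibitors in 5, so these medians carry no direction. The cause of these was not tested. No paired analysis was possible because each group is 1 library. Depth limits genes under 100 UMIs.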
